A study of Mus musculus with 18 samples.

Results

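The 35 genes described here encode the machinery of autophagy and mitophagy, chosen by symbol from 24072 genes counted in sorted mouse erythroid progenitors. They cover 4 genes of the initiation complex, 5 of the lipid kinase complex and its effectors, 2 of membrane supply, 7 conjugation enzymes, 5 ATG8 proteins, 4 cargo receptors, 4 mitophagy genes and 4 genes of the lysosome and fusion. Of the 35, 31 passed a mean of 50 counts over the 9 spleen libraries and 32 stood in the count table of both BFU-E populations, so counts of members that passed a test of RNA are over 31 or 32 genes. The members that did not pass were Atg10, Map1lc3a, Gabarapl2 and Bnip3 in the spleen table, and Map1lc3a, Gabarapl2 and Bnip3 in the other.

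Autophagy encloses cytoplasm in a membrane that closes into an autophagosome and then fuses with the lysosome. A kinase complex starts the process, a lipid kinase marks the site, and conjugation enzymes attach ATG8 proteins to the membrane, where cargo receptors bind them. Red cell precursors use mitophagy, the selective removal of mitochondria, late in maturation, and in the mouse the receptor Bnip3l (also called Nix) is required for it.

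RNA was sequenced from B6SJL mice, with 3 libraries each of stress erythroid colony-forming units (CFU-E), stress erythroid burst-forming units (BFU-E), stress multipotent progenitors (MPP) and steady-state bone marrow (BM) BFU-E. The 3 stress populations were sorted from spleens 8 days after mice were lethally irradiated and given whole bone marrow, so they come from a transplanted host. The BM BFU-E came from mice described as steady state, and accessible chromatin was measured by ATAC-seq, with 3 libraries each, in both BFU-E populations only. The titles name the gates: CD9-negative for CFU-E, Sca-negative for both BFU-E populations and Sca-positive for MPP. Cells bearing the lineage antigens Ter-119, Gr-1, CD8, CD4 or B220 were first removed, and biotinylated antibodies were read with Qdot655 in steady-state sorts and Qdot605 in the others. Tissue, transplantation and staining therefore change together between the BFU-E populations, and their effects cannot be told apart.

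Libraries held 5937778 to 13197159 counts, the 35 members took 0.159% to 0.209% of them, and the ribosomal transcript Rn45s took 8.01% to 22.6%. Markers followed the labels: the summed level of 9 erythroid markers was 166.2 to 221.8 CPM (counts relative to library size) in MPP, 285.5 to 330.4 CPM in stress BFU-E and 1695 to 1698 CPM in CFU-E. Along the same stages, 7 stem and MPP markers summed to 627.6 to 729.7, 371.6 to 405.0 and 100.9 to 135.3 CPM. The 6 megakaryocyte markers summed to 852.1 to 1003 CPM in MPP, 1489 to 1760 CPM in stress BFU-E and 74.9 to 86.6 CPM in CFU-E, and the 9 macrophage markers to 63.8 to 111.4, 57.1 to 90.3 and 12.1 to 16.6 CPM. Granulocyte markers (5 genes) summed to 23.5 to 453.1, 562.9 to 678.5 and 17.3 to 82.5 CPM over these stages, so MPP libraries differed widely in them. Mast cell and basophil markers (4 genes) summed to 438.1 to 480.0, 497.5 to 543.4 and 282.3 to 389.3 CPM, while B and T cell markers stayed at 0 to 0.55 CPM. In the table of both BFU-E populations, the 5 macrophage markers present summed to 58.4 to 92.1 CPM in stress BFU-E and 248.9 to 669.0 CPM in BM BFU-E, and the 6 erythroid markers to 287.6 to 335.6 and 159.8 to 271.8 CPM. By mean, Tfrc, Gata1 and Epor were higher in stress BFU-E, Car1 and Ermap lower, and Klf1 equal at 29.0 CPM. Megakaryocyte marker sums overlapped, at 1524 to 1802 CPM in stress BFU-E and 1647 to 2595 CPM in BM BFU-E. Sums of granulocyte, of mast cell and basophil, and of stem markers overlapped as well.

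The sequences below are shown because Optn carries the largest change among the members, Lamp1 is one of the genes that fell from the BFU-E to the CFU-E stage, and Bnip3l is the mitophagy receptor known in this lineage. They were read from RefSeq GRCm38.p6, in the direction of each gene, and capitals mark CACGTG (the E-box core of the CLEAR element bound by Tfeb and its relatives) or AGATAA (the GATA factor motif) on either strand. The Optn promoter spans chr2:5064068-5064367, and neither motif occurs in it. The first Optn window, chr2:5042978-5043227, is the centre of an intronic peak present in both BFU-E peak lists and holds 1 AGATAA. The second Optn window, chr2:5080126-5080375, is the centre of an intergenic peak found only in the stress list. The Lamp1 promoter at chr8:13158911-13159210 holds 4 CACGTG matches, and the Bnip3l window at chr14:66999772-67000021 lies in an intronic peak of both lists, with 1 AGATAA read as TTATCT on the strand shown.
Optn promoter: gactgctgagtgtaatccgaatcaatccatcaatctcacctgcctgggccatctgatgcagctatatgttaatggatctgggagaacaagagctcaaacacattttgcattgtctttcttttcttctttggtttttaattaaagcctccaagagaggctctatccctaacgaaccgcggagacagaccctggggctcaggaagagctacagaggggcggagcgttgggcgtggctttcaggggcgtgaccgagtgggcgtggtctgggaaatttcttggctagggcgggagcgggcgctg
Optn intron: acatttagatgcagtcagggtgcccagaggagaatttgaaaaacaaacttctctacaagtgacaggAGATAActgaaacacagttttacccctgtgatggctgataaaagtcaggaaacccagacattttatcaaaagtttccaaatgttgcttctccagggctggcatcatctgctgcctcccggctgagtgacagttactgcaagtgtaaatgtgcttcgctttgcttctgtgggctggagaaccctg
Optn upstream: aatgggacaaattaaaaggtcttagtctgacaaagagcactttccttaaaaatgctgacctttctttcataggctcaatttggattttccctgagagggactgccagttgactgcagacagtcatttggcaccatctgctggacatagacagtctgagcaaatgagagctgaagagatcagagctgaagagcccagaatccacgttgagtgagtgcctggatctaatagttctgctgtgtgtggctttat
Lamp1 promoter: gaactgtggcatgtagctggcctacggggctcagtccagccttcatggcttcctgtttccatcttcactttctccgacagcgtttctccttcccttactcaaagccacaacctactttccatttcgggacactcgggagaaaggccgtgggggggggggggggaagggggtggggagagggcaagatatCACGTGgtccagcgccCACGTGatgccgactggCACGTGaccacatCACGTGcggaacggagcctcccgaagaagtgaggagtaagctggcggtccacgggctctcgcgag
Bnip3l intron: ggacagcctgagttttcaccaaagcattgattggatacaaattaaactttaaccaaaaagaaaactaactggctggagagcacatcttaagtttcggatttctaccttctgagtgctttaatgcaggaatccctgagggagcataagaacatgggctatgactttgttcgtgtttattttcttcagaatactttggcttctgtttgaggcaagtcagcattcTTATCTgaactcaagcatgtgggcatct

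The step from stress BFU-E to stress CFU-E asked how the machinery differs between the earlier and the later erythroid progenitor. Cargo receptors moved in both directions: Optn and Sqstm1 rose in CFU-E, while Calcoco1 fell, together with the ATG8 protein Gabarapl1, the mitophagy kinase Pink1 and the lysosomal membrane protein Lamp1. These 6 of 31 members passed the test (edgeR quasi-likelihood test, Benjamini-Hochberg adjusted p under 0.05), against 21.1% of all 10166 genes tested, with 2 higher (9.17% of all genes) and 4 lower (11.9%). The calls of Sqstm1, Calcoco1 and Pink1 were lost in some of the alternative fits given below. Libraries of the 2 stages did not overlap for 11 of 31 members, against 37.5% of all genes. The median size of the log2 fold change was 0.23 over the members and 0.31 over all genes.

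Optn, a receptor that carries ubiquitin-marked mitochondria, protein aggregates and bacteria to the autophagosome, was at 235.9, 264.0 and 299.3 CPM in CFU-E, against 101.7, 99.9 and 107.0 CPM in BFU-E. Every CFU-E library lay far above every BFU-E library; in such bulk samples, fewer cells of a type and less RNA per cell cannot be told apart. The log2 fold change was 1.37 ± 0.13 (SE, n = 3 each, edgeR adjusted p = 1e-07). Sqstm1, the receptor p62 and itself a substrate of autophagy, was at 103.7, 135.4 and 122.8 CPM in CFU-E, against 93.3, 77.1 and 79.9 CPM in BFU-E. The groups did not overlap, but the gap between the nearest libraries was small. Its log2 fold change was 0.53 ± 0.15 (SE, edgeR adjusted p = 0.013), and the adjusted p was 0.064, 0.058 and 0.076 without BFU-E replicate 2, BFU-E replicate 3 and CFU-E replicate 2.

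Gabarapl1, an ATG8 protein that anchors cargo receptors to the membrane, was at 54.0, 76.8 and 60.7 CPM in CFU-E, against 103.2, 107.5 and 96.1 CPM in BFU-E. All 3 CFU-E libraries were lower, by a log2 fold change of -0.68 ± 0.17 (SE, edgeR adjusted p = 0.0059). Lamp1, a major glycoprotein of the lysosomal membrane, was at 169.1, 146.2 and 157.2 CPM in CFU-E, against 226.0, 207.2 and 207.9 CPM in BFU-E. It too was lower in all 3 CFU-E libraries, by a log2 fold change of -0.44 ± 0.12 (SE, edgeR adjusted p = 0.0083). The calls of Optn, Gabarapl1 and Lamp1 held under all alternatives run.

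Pink1, the kinase that accumulates on damaged mitochondria and recruits the ubiquitin ligase parkin, was at 48.9, 66.3 and 71.3 CPM in CFU-E, against 86.1, 85.8 and 102.9 CPM in BFU-E. Calcoco1, a receptor for the endoplasmic reticulum, was at 13.4, 17.8 and 24.2 CPM in CFU-E, against 23.1, 34.3 and 38.8 CPM in BFU-E. Pink1 did not overlap between the stages, while the highest CFU-E library for Calcoco1 lay above the lowest BFU-E library. Their log2 fold changes were -0.56 ± 0.20 (SE, edgeR adjusted p = 0.048) for Pink1 and -0.80 ± 0.28 (SE, edgeR adjusted p = 0.045) for Calcoco1. Both lay close to the threshold: with the filterByExpr filter the edgeR adjusted p was 0.054 for each. By DESeq2 with a mean dispersion trend it was 0.10 for Pink1. The edgeR adjusted p of Pink1 was 0.075 to 0.22 without BFU-E replicate 1, 2 or 3 or CFU-E replicate 1 or 2, highest without CFU-E replicate 1. That of Calcoco1 was 0.055 to 0.20 without BFU-E replicate 2 or 3, CFU-E replicate 1 or 2 or MPP replicate 3, highest without BFU-E replicate 3. Erythroid markers rose in the same comparison (6 of 6 tested) and megakaryocyte markers fell (6 of 6), and their part in the 6 member calls was not tested.

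**Figure D1:**
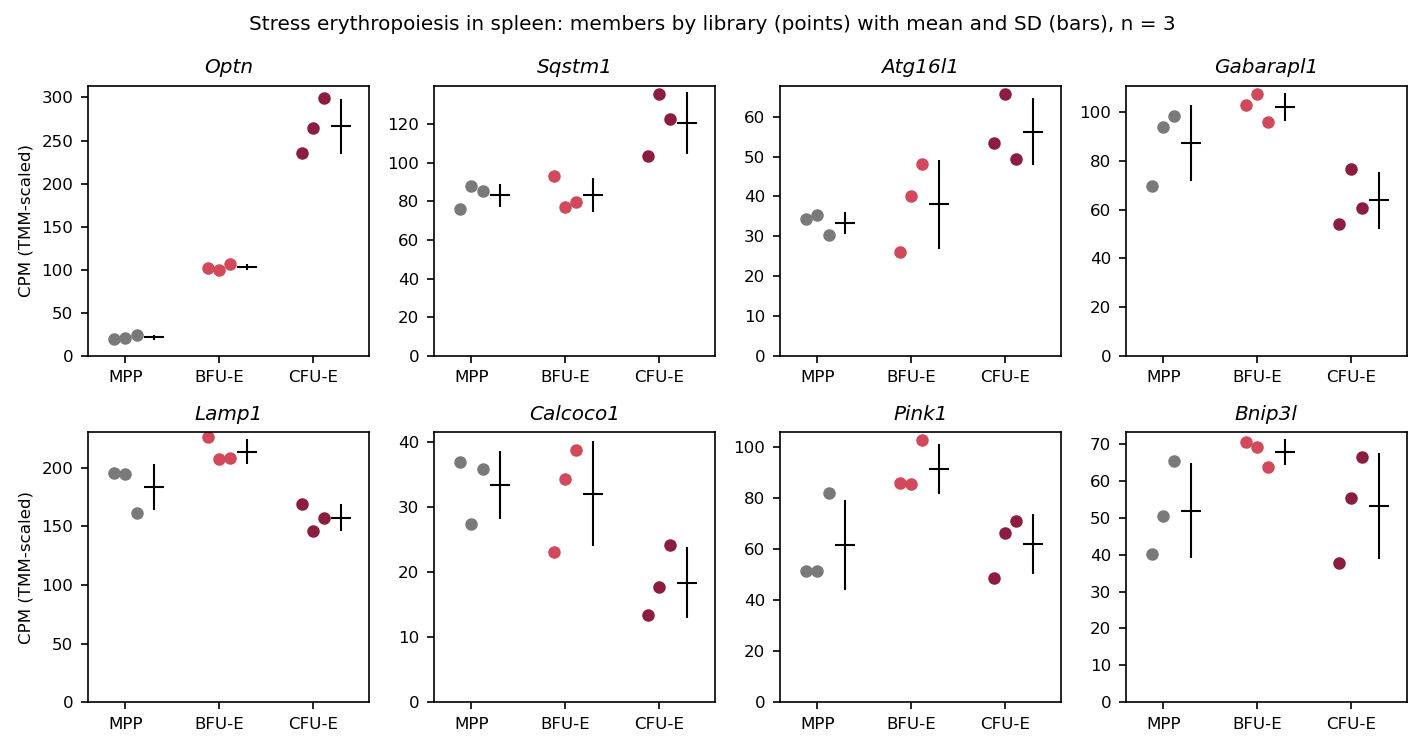
Level of 8 members (CPM, linear axes from 0) in each of the 3 libraries of stress MPP, BFU-E and CFU-E, as points with the group mean and SD. Optn climbs at each stage to 235.9 to 299.3 CPM in CFU-E, while Gabarapl1 and Lamp1 lie below their BFU-E libraries in all CFU-E libraries.

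The initiation genes did not pass the test in this comparison. Ulk1, the kinase that starts autophagy, was at 46.4, 53.9 and 51.02 CPM in CFU-E, against 55.2, 56.4 and 56.0 CPM in BFU-E. The groups did not overlap, yet the difference was small, at a log2 fold change of -0.15 with an approximate interval of -0.53 to 0.24 (edgeR adjusted p = 0.67). Its paralog Ulk2, its scaffold Rb1cc1 (FIP200) and its partner Atg13 overlapped between the stages, with log2 fold changes of -0.35, 0.06 and 0.08. In the lipid kinase group, Becn1, a core subunit that many regulators bind, was at 109.5, 107.4 and 132.2 CPM in CFU-E, against 102.4, 125.2 and 101.4 CPM in BFU-E, and overlapped. The catalytic subunit Pik3c3, the targeting subunit Atg14 and the phosphoinositide binders Wipi1 and Wipi2 had log2 fold changes of -0.05, -0.21, 0.68 and -0.21, none past the test. Of these, Wipi1 and Wipi2 did not overlap between the stages.

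Among the genes that supply membrane, the scramblase Atg9a was at 21.5, 29.4 and 23.7 CPM in CFU-E, against 32.6, 38.9 and 36.2 CPM in BFU-E. Those groups did not overlap, and the log2 fold change was -0.53 ± 0.23 (SE, edgeR adjusted p = 0.11, and 0.022 by DESeq2 with a mean dispersion trend). The lipid transfer protein Atg2a overlapped, with a log2 fold change of 0.14. Of the conjugation enzymes, Atg16l1, which places the conjugation complex on the membrane, was at 53.5, 65.7 and 49.5 CPM in CFU-E, against 26.0, 40.1 and 48.1 CPM in BFU-E. Atg5, which is joined to Atg12 in the same complex, was at 60.5, 44.6 and 51.2 CPM in CFU-E, against 44.5, 38.9 and 30.2 CPM in BFU-E. Both sat higher in every CFU-E library by narrow gaps, with log2 fold changes of 0.57 (edgeR adjusted p = 0.083) and 0.46 (edgeR adjusted p = 0.15), and without BFU-E replicate 3 the change of Atg16l1 was 0.77 (edgeR adjusted p = 0.044). The E1-like enzyme Atg7, the E2-like enzyme Atg3, the protease Atg4b and Atg12 all overlapped, with log2 fold changes from -0.21 to 0.17.

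Of the other ATG8 proteins, Map1lc3b, the usual marker of autophagosomes, was at 25.4, 31.8 and 32.0 CPM in CFU-E, against 35.1, 31.9 and 24.3 CPM in BFU-E. The libraries were intermixed, as they were for Gabarap, whose log2 fold change was -0.23. Bnip3l, the mitophagy receptor of red cell precursors, was at 37.7, 55.3 and 66.3 CPM in CFU-E, against 70.6, 69.0 and 63.7 CPM in BFU-E. It overlapped and did not pass the test, with a log2 fold change of -0.35 and an approximate interval of -0.77 to 0.07 (edgeR adjusted p = 0.28). The outer membrane receptor Fundc1 and the ubiquitin-binding receptor Nbr1 also overlapped, with log2 fold changes of 0.14 and -0.28. Tfeb, which drives lysosomal genes, was low, at 2.00, 7.57 and 2.32 CPM in CFU-E, against 8.25, 4.59 and 2.03 CPM in BFU-E, and the tethering factor Tecpr1 was similarly low. Lamp2, which is needed for fusion with the lysosome, was at 71.9, 86.7 and 79.0 CPM in CFU-E, against 96.7, 80.8 and 111.6 CPM in BFU-E, with overlap and a log2 fold change of -0.28 (edgeR adjusted p = 0.23).

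The other genes of the pathway, in lists by role, followed no single direction in CFU-E against BFU-E. Of all genes tested, 21.1% passed in this comparison, 9.17% higher and 11.9% lower, and each count below stands beside these shares. Of 14 genes of the mitochondrial outer membrane and mass, 5 rose and 0 fell: Tomm40 and Mfn1 by log2 fold changes of 0.65 and 0.53, the channels Vdac2 and Vdac1 by 0.59 and 0.45, and citrate synthase (Cs) by 0.57. Of 11 further cargo receptor and mitophagy genes tested, Bcl2l13 (0.82) and Phb2 (0.63), both known as mitophagy receptors, rose. The ubiquitin-binding receptor Tax1bp1 fell, at 281.5 ± 7.07 CPM in CFU-E and 461.1 ± 35.4 CPM in BFU-E (SD, n = 3 each), a log2 fold change of -0.71. Of 24 upstream regulators tested, the AMPK subunit Prkab1 (1.13) and the Tfeb relative Tfe3 (1.02) rose and 0 fell. Of 29 lysosomal genes, 2 rose (Lipa and Tpp1) and 4 fell (Cd63, Hexa, Psap and Atp6v0d1). Of 11 other initiation and lipid transfer genes, Atg2b rose by 0.52, while Wdr45 and the inhibitor Rubcn had log2 fold changes of -0.94 and -0.89. Of 12 fusion genes, Vps16 rose by 0.44, and 0 of 3 other conjugation genes passed. Median log2 fold changes of these lists ran from -0.20 to 0.24, against 0.00 over all genes.

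**Figure D2:**
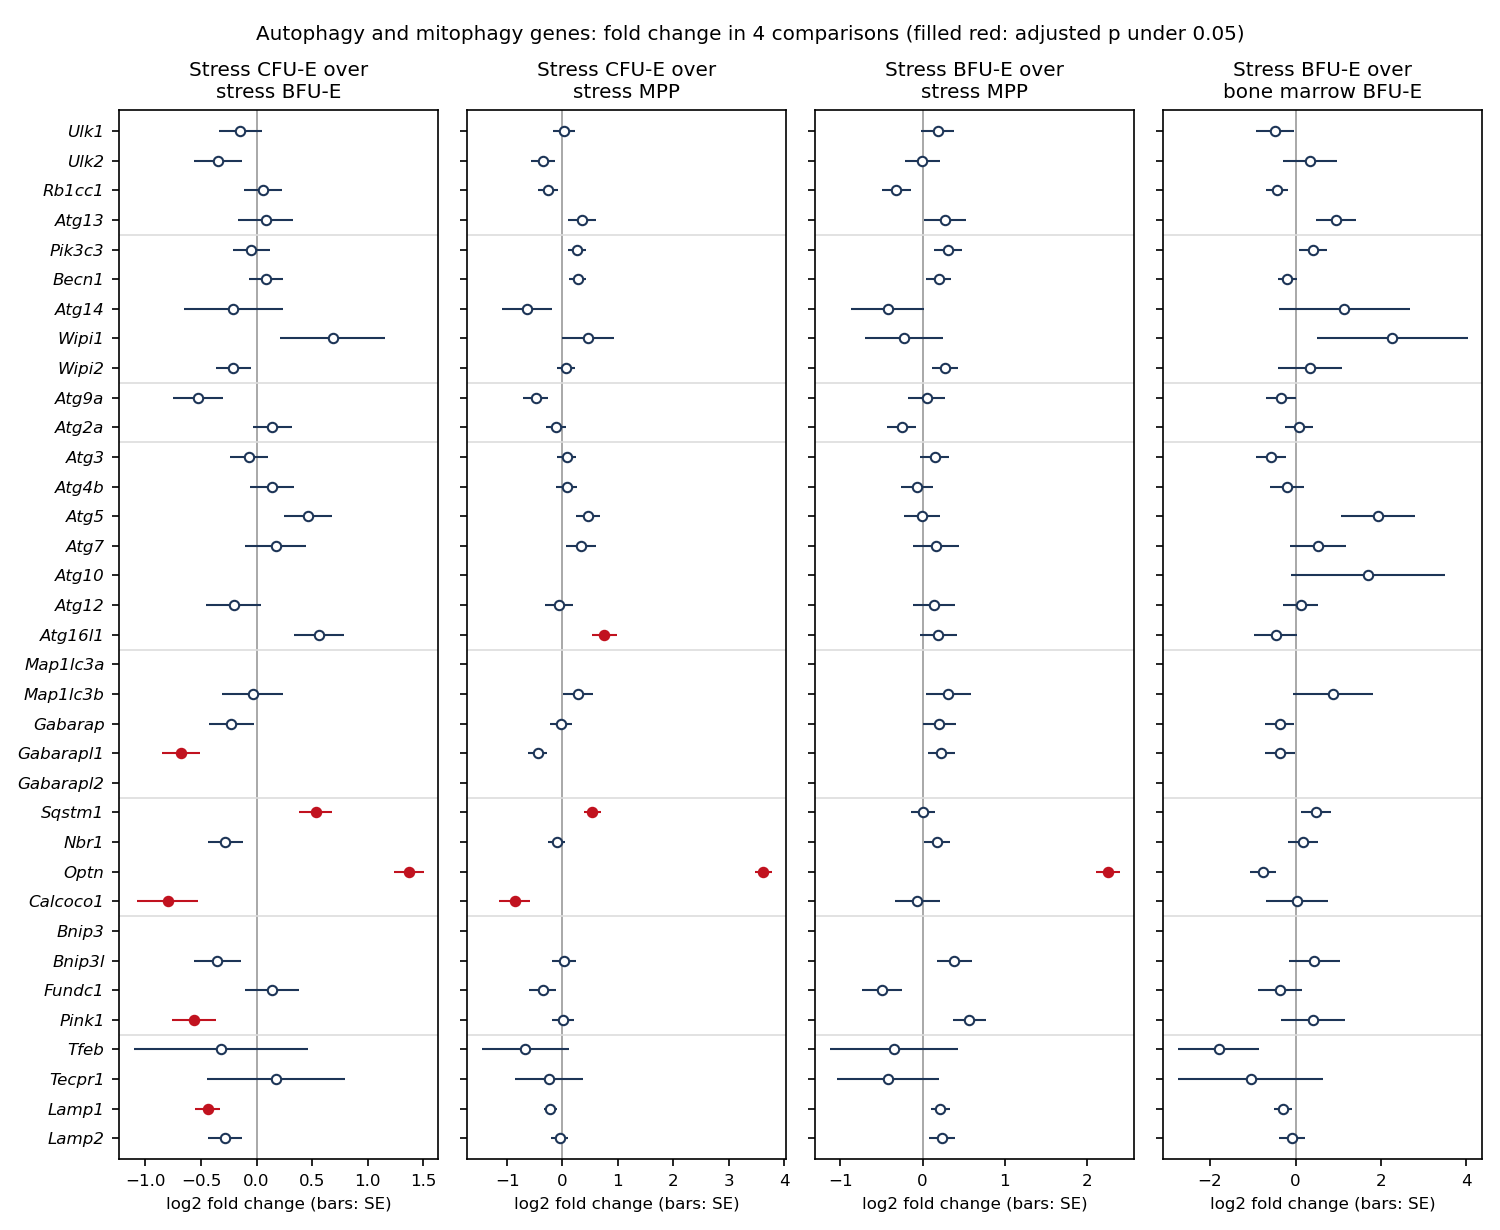
Log2 fold change of every member tested, as points with their SE, in CFU-E over BFU-E, CFU-E over MPP, BFU-E over MPP and stress over BM BFU-E; the panels have different scales. Optn stands apart on the right of the 3 spleen panels, at 1.37, 3.63 and 2.25, and most other members lie near 0.

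CFU-E were next set against stress MPP, the earliest of the 3 spleen populations. Optn, Sqstm1 and Atg16l1 rose and Calcoco1 fell in CFU-E: 4 of 31 members passed, against 28.8% of all genes, with 3 higher (12.7% of all genes) and 1 lower (16%). Libraries did not overlap for 6 of 31, against 40.4%. This comparison uses the same CFU-E libraries as the one above, so the 2 are not independent. Optn was at 235.9, 264.0 and 299.3 CPM in CFU-E, against 19.97, 20.3 and 24.5 CPM in MPP. No other member came near this gap, and the log2 fold change was 3.63 ± 0.15 (SE, n = 3 each, edgeR adjusted p = 2.1e-13).

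Sqstm1 was at 76.2, 87.7 and 85.2 CPM in the MPP libraries, all below the 103.7 to 135.4 CPM of CFU-E, with a log2 fold change of 0.54 ± 0.15 (SE, edgeR adjusted p = 0.0091). Without CFU-E replicate 2 its adjusted p was 0.055. Atg16l1 was at 53.5, 65.7 and 49.5 CPM in CFU-E, against 34.3, 35.4 and 30.3 CPM in MPP. The groups were clearly apart, with a log2 fold change of 0.76 ± 0.23 (SE, edgeR adjusted p = 0.016), although the adjusted p was 0.057 without MPP replicate 3 and 0.079 without CFU-E replicate 2. Calcoco1 was at 13.4, 17.8 and 24.2 CPM in CFU-E, against 36.9, 27.5 and 35.9 CPM in MPP. All CFU-E libraries were lower, with a log2 fold change of -0.86 ± 0.28 (SE, edgeR adjusted p = 0.024), and leaving out MPP replicate 1 or 3 or CFU-E replicate 1 or 2 gave adjusted p-values of 0.064 to 0.12.

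Gabarapl1, at 69.6, 93.9 and 98.6 CPM in MPP, overlapped with CFU-E and missed the threshold, with a log2 fold change of -0.45 ± 0.17 (SE, edgeR adjusted p = 0.054). The adjusted p was 0.039 with upper-quartile factors, 0.039 with the replicate number as a block, 0.047 by DESeq2, and 0.015 and 0.021 without MPP replicate 1 and CFU-E replicate 2. Lamp1 was at 195.4, 195.0 and 161.0 CPM in MPP and Pink1 at 51.6, 51.7 and 82.3 CPM, so both were highest at the BFU-E stage by mean. Neither passed between CFU-E and MPP, with log2 fold changes of -0.22 (edgeR adjusted p = 0.16) and 0.01 (edgeR adjusted p = 0.98). Ulk1, Becn1, Map1lc3b, Bnip3l, Tfeb and Lamp2 had log2 fold changes of 0.03, 0.28, 0.28, 0.03, -0.67 and -0.05, none past the test.

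In the other lists, counts stand beside 28.8% of all genes that passed in CFU-E against MPP, 12.7% higher and 16% lower. Of 14 mitochondrial genes, 7 rose and 0 fell, led by Tomm40 (0.86), Vdac2 (0.62), Cs (0.62) and Tomm70a (0.49). Of the 24 upstream regulators, 5 rose, among them the AMPK subunit Prkab1 (1.32), Tfe3 (1.15), the FOXO factor Foxo3 (0.72) and the AMPK subunit Prkag1 (0.61), and 2 fell, the mTOR inhibitor Deptor and the Tfeb relative Mitf. Of the cargo and mitophagy genes, Bcl2l13 (1.02) and Phb2 (0.81) rose, while Fam134b (-1.55), a receptor for the endoplasmic reticulum, Tax1bp1 (-0.94) and the kinase Tbk1 (-0.56), which phosphorylates Optn, fell. Tbk1 was at 49.7 ± 7.64 CPM in CFU-E and 73.0 ± 7.48 CPM in MPP (SD, n = 3 each). Lysosomal genes were split, with 3 higher and 7 lower of 29, the largest falls being Cd63 (-1.80), Psap (-1.17) and Hexa (-0.90). The other lists gave 1 higher and 2 lower of 11 initiation genes, 0 of 12 fusion genes, and 1 lower of 3 conjugation genes (Atg16l2, -1.33).

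Between stress BFU-E and MPP, 1 of 31 members passed, against 4.13% of all genes in either direction and 2.03% higher. Libraries did not overlap for 5 of 31, against 21.3% of all genes, with 4 higher (10.5%) and 1 lower (10.8%). The member that passed was Optn, at 101.7, 99.9 and 107.0 CPM in BFU-E, against 19.97, 20.3 and 24.5 CPM in MPP. The groups were widely apart, with a log2 fold change of 2.25 ± 0.14 (SE, n = 3 each, edgeR adjusted p = 7.7e-09). The other members that did not overlap were Pink1, Lamp1 and Wipi2, higher in BFU-E, and Rb1cc1, lower. Pink1 was at 86.1, 85.8 and 102.9 CPM in BFU-E, against 51.6, 51.7 and 82.3 CPM in MPP. Its log2 fold change was 0.57 ± 0.20 (SE, edgeR adjusted p = 0.13), and the adjusted p was 0.028 without MPP replicate 3, 0.030 with no filter and 0.037 with scaling by total counts only. That scaling moved the median log2 fold change of all genes by 0.11 and the share of called genes that were higher to 69.6%, against 49.0% with TMM.

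Sqstm1, Ulk1, Becn1, Map1lc3b, Gabarapl1, Bnip3l, Tfeb and Lamp2 overlapped between BFU-E and MPP, with log2 fold changes of 0.01, 0.18, 0.19, 0.31, 0.23, 0.39, -0.35 and 0.23. For Sqstm1 the difference was as good as 0, with an approximate interval of -0.28 to 0.30. Bnip3l was at 70.6, 69.0 and 63.7 CPM in BFU-E, against 40.0, 50.3 and 65.4 CPM in MPP, where only the third MPP library reached the BFU-E range. In the other 7 lists, 3 genes passed and all were lower in BFU-E: Fam134b (-1.60), the proton pump subunit Atp6v1d (-0.86) and Deptor (-0.78). Of all genes, 4.13% passed in this comparison and 2.11% were lower.

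The 4 members under the mean of 50 counts were Bnip3, a receptor related to Bnip3l, Map1lc3a, Gabarapl2 and the E2-like enzyme Atg10, and they were left out of the spleen test. Bnip3 had 9, 10 and 13 counts in CFU-E, 65, 24 and 34 in BFU-E and 14, 1 and 19 in MPP. Relative to library size it was at 0.69 to 1.31 CPM in CFU-E, 2.20 to 4.83 CPM in BFU-E and 0.17 to 2.44 CPM in MPP. CFU-E lay below all BFU-E libraries, while MPP overlapped with both. Map1lc3a had 22, 13 and 13 counts in CFU-E, 33, 51 and 40 in BFU-E and 31, 13 and 61 in MPP, and Gabarapl2 had 3, 0 and 10, 24, 28 and 1, and 20, 0 and 29 at the same stages. The mapping of these genes limits such counts: 75.5% of the 50-base stretches of the Gabarapl2 transcript, 58.7% of those of Bnip3, 29.8% of Map1lc3b and 29.6% of Bnip3l occur more than once in the genome, so the level of these genes is uncertain. The shares were 3.28% for Optn, 3.16% for Lamp1 and 0% for Gabarapl1, Pink1 and Calcoco1. Becn1 shares 21.6% of its exon bases with a gene on the other strand, and the strand used for counting is not given in the sources used here.

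Levels per length (RPKM) placed the members in order within each population. Optn was at 4.94, 4.49 and 5.59 RPKM in MPP, 24.2, 22.0 and 24.5 RPKM in BFU-E and 57.1, 60.7 and 62.4 RPKM in CFU-E. By mean it was rank 26 of 35 in MPP, rank 5 in BFU-E and first in CFU-E. Lamp1 was first in MPP (45.7 ± 6.21 RPKM), in stress BFU-E (52.3 ± 4.51) and in BM BFU-E (63.1 ± 16.9), and second in CFU-E (38.2 ± 4.77, SD, n = 3 each). Behind it in stress BFU-E came Gabarapl1, Becn1 and Gabarap, at 31.8 ± 1.72, 29.8 ± 2.65 and 28.7 ± 5.39 RPKM, which did not differ beyond their spread.

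Within the ATG8 family of 5 genes, Gabarapl1 held 30.1% to 49.8% and Gabarap 33.3% to 53.3% of the summed RPKM in the spleen libraries, and Map1lc3b 8.11% to 20.1%. Map1lc3a and Gabarapl2 were at 5.79% or less. The levels of Gabarapl2 and Map1lc3b are uncertain by their repeated stretches, and with them all shares within the family. Bnip3l made up 88.8% to 99.4% of the summed RPKM of Bnip3l and Bnip3 in the spleen libraries. This share is uncertain too, as repeated stretches make up 58.7% of Bnip3 and 29.6% of Bnip3l. Ulk1 and Ulk2 were near even, with Ulk1 at 43.6% to 63.7%.

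**Figure D3:**
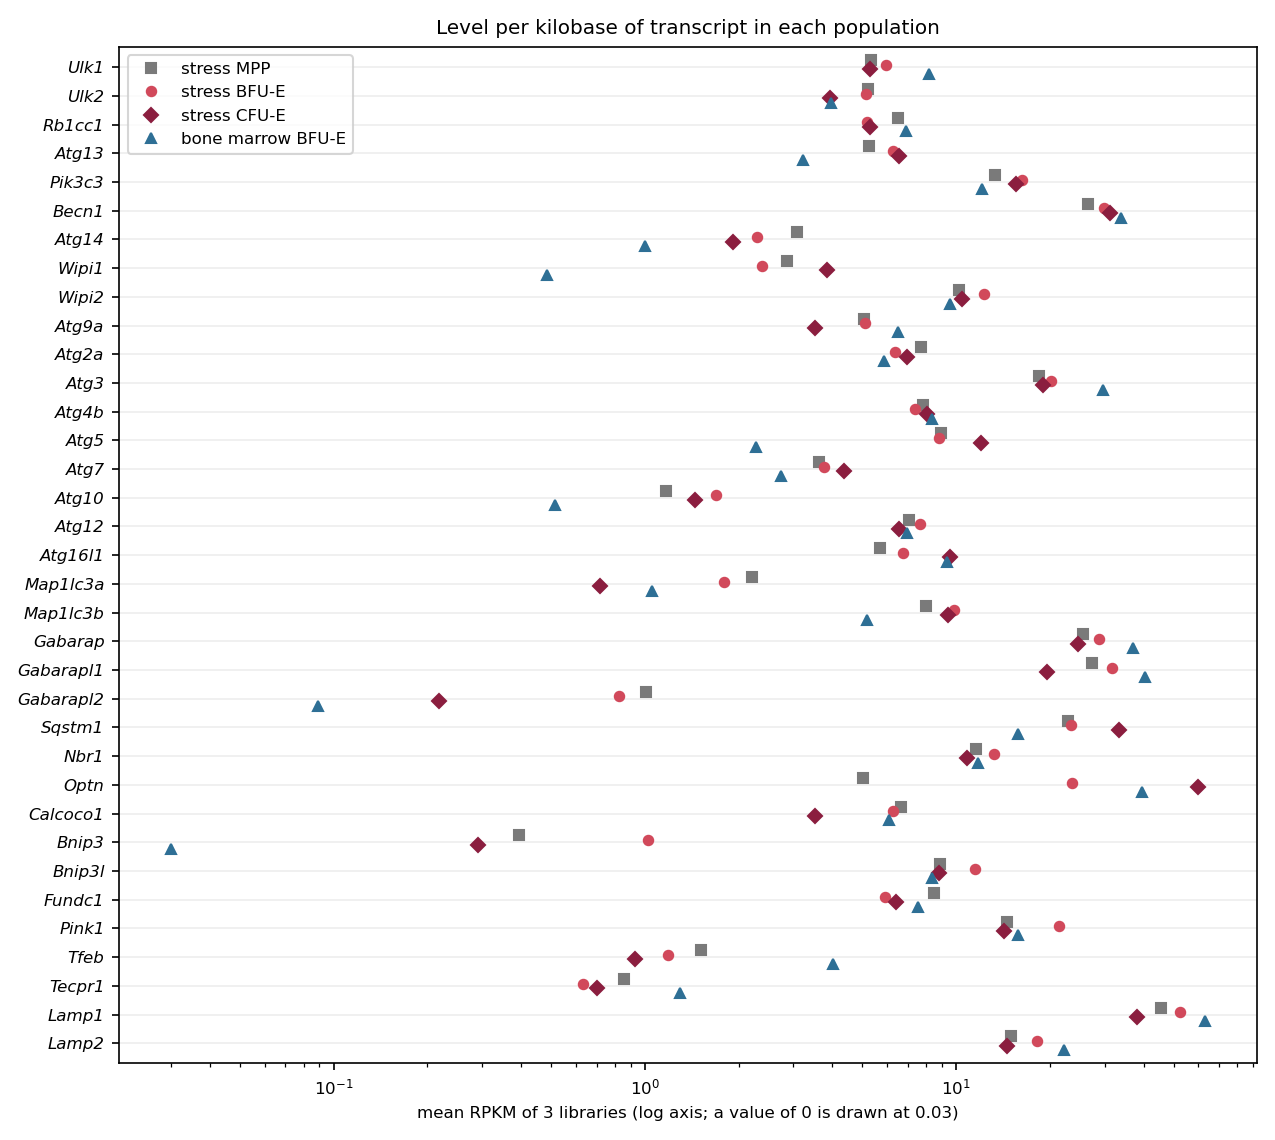
Mean RPKM of 3 libraries for all 35 members in stress MPP, BFU-E and CFU-E and in BM BFU-E. Each population has 1 point per gene on a log axis, where values of 0 are drawn at 0.03. Lamp1, Gabarap and Gabarapl1 are high in each population, and the mean of Optn goes from 5.01 RPKM in MPP to 60.05 RPKM in CFU-E.

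Stress BFU-E, from the spleen under transplantation stress, were set against BM BFU-E, from the marrow at steady state. Both were sorted as Sca-negative, and whether they hold the same cell type was not tested. Of 32 members, 0 passed the edgeR test, against 0.112% of all 10702 genes (12 genes), and 0 passed with DESeq2, which called 685 genes with a local dispersion trend and 579 with a mean trend. At an unadjusted p under 0.05 there was 1 member, Optn, against 9.84% of all genes. Libraries did not overlap for 6 of 32 members, against 21.9% of all genes: Atg13, Wipi1 and Atg5 (3, against 12.8%) were higher in every stress library, and Rb1cc1, Optn and Tfeb (3, against 9.08%) were lower. The BM libraries varied more, with a median coefficient of variation over the members of 11.8% in stress BFU-E and 43.1% in BM BFU-E, against 15.1% and 51.7% over all genes.

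Optn was at 103.6, 102.3 and 109.6 CPM in stress BFU-E, against 139.0, 129.9 and 267.1 CPM in BM BFU-E. The stress libraries were close together and below all BM libraries, the third of which lay far above the other two. The log2 fold change was -0.76 ± 0.30 (SE, edgeR unadjusted p = 0.0331, adjusted p = 0.46), and -0.350 without BM replicate 3. In 2 of 3 BM libraries Optn lay below the CFU-E range, but the tables were fitted separately and marrow and CFU-E were not tested against each other. Macrophage marker sums also differed between these populations, as given above, with 1 of 5 markers (Csf1r) lower in stress BFU-E by the test, and their part in these values was not tested.

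Atg5 was at 45.3, 39.8 and 30.9 CPM in stress BFU-E, against 20.6, 8.26 and 1.59 CPM in BM BFU-E. Every stress library was higher, but the marrow values were spread over more than a factor of 10, and the log2 fold change of 1.92 ± 0.86 did not pass (SE, edgeR adjusted p = 0.52). Tfeb was at 8.41, 4.70 and 2.08 CPM in stress BFU-E, against 11.3, 15.9 and 25.6 CPM in BM BFU-E. It was lower in all stress libraries, with a log2 fold change of -1.80 ± 0.95 (SE, edgeR adjusted p = 0.60). Atg13 was at 37.8, 49.1 and 37.6 CPM in stress BFU-E, against 22.9, 28.7 and 13.5 CPM in BM BFU-E, and Rb1cc1 at 64.2, 68.4 and 69.9 CPM, against 112.8, 84.5 and 76.2 CPM. The libraries of these 2 partners of Ulk1 stood apart in opposite directions, and neither passed the test (edgeR adjusted p = 0.57 and 0.65). Wipi1 was at 4.70, 11.1 and 8.49 CPM in stress BFU-E, against 0.76, 4.26 and 0 CPM in BM BFU-E.

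**Figure D4:**
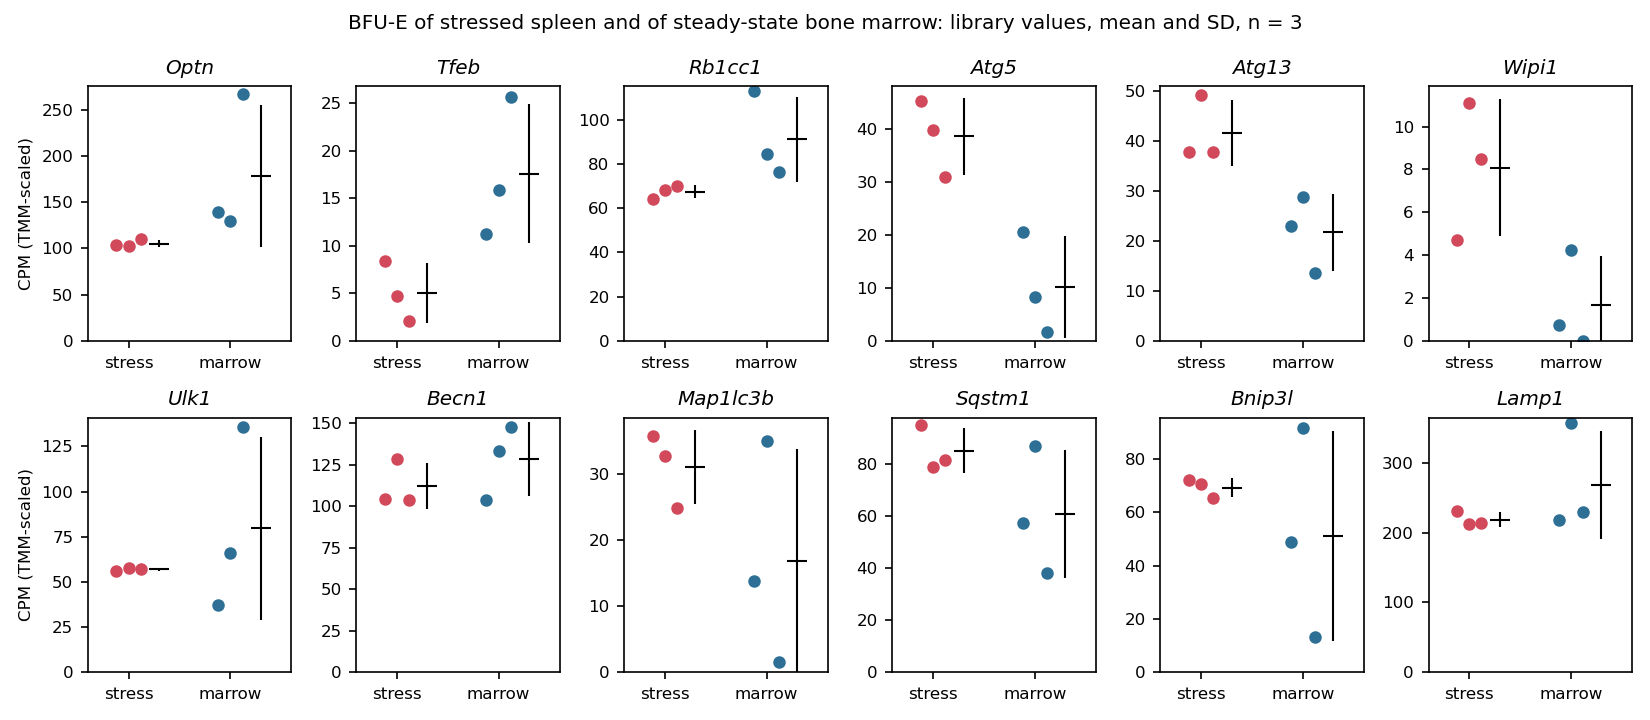
CPM of 12 members in the 3 stress BFU-E and the 3 BM BFU-E libraries, as points with group mean and SD on linear axes from 0. Stress libraries lie close together for Optn and Bnip3l but not for Tfeb (2.08 to 8.41 CPM) or Wipi1 (4.70 to 11.1 CPM), marrow libraries are widely spread for Bnip3l and Atg5, and Optn, Tfeb and Rb1cc1 are lower and Atg5, Atg13 and Wipi1 higher in every stress library.

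The remaining members overlapped between the populations. Sqstm1 was at 95.1, 78.9 and 81.8 CPM in stress BFU-E, against 57.6, 87.1 and 38.4 CPM in BM BFU-E. Bnip3l was at 71.9, 70.6 and 65.2 CPM in stress BFU-E, against 48.7, 91.5 and 13.2 CPM in BM BFU-E, and Lamp1 at 230.3, 212.1 and 213.0 CPM, against 217.7, 356.2 and 230.0 CPM. In each case the stress libraries stood inside or near the marrow range, with log2 fold changes of 0.48, 0.44 and -0.30, and that of Bnip3l was -0.013 without BM replicate 3 and 1.17 without BM replicate 2. Ulk1, Becn1, Map1lc3b, Gabarapl1 and Lamp2 had log2 fold changes of -0.48, -0.20, 0.89, -0.36 and -0.09. Without BM replicate 3, Ulk1 and Lamp2 turned to 0.149 and 0.251 and Map1lc3b was at 0.355, and without BM replicate 2 Map1lc3b was at 2.02. The intervals were wide, from -0.95 to 2.72 for Map1lc3b and from -1.37 to 0.41 for Ulk1, so differences of about that size were not detectable with these libraries. Bnip3 was at 1.58, 0.66 and 0.84 RPKM in stress BFU-E, and it was listed at 0 in all 3 BM libraries of a separate RPKM table. The repeated stretches of Bnip3 make these levels uncertain. In the 7 other lists, 0 genes passed the edgeR test, against 0.112% of all genes.

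Chromatin at the members' start sites was accessible in both BFU-E populations. The authors pooled replicates into 1 peak list per population, so peaks are described without a test, and their scores are the authors' own. By position, all 35 members had some part of a peak within 1 kb of the start site in both lists. The share of all genes by this rule was not computed, so it cannot be read as particular to the members. By the gene name in the authors' annotation, 32 members (91.4%) had a promoter peak in the stress list and 30 (85.7%) in the BM list, against 84.6% and 80.7% of all genes in the spleen test. The names that were missing stood with a neighbour or were blank: the peak at the Gabarapl1 start was named for 1700101I11Rik in the BM list, that at Atg13 for Harbi1, and that at Atg4b for Thap4 in both lists. The median score of the members' promoter peaks was 1000 in both lists, the top of the scale. The promoter peaks of Lamp1 (1000 in the stress list and 601 in the BM list) and Gabarap (1000 and 514) had the widest gaps and were picked for them after the scores were seen.

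The stress list held 125 peaks named for a member and the BM list 72, of 61661 and 35142 peaks in all. More peaks were named in the stress list for 20 members (57.1%), fewer for 0, and equal numbers for 15, against 56.6% with more and 3.36% with fewer among all genes in the spleen test. Of the 125 stress peaks, 74 (59.2%, Wilson 95% interval 50.4 to 67.4, counting error only) overlapped a BM peak, against 55.0% of all stress peaks. Of the 72 BM peaks, 69 (95.8%, 88.5 to 98.6) overlapped a stress peak, against 95.5% of all BM peaks. Both intervals take peaks as independent, although 26 stress peaks and 8 BM peaks were named for Atg7 alone, so they are too narrow. The members' shares thus lay near those of all peaks. Of distal peaks, 41 of 89 in the stress list (46.1%) and 39 of 42 in the BM list (92.9%) were shared, against 46.7% and 93.8% of all distal peaks.

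Atg7, the E1-like enzyme of both conjugation systems, held 26 peaks in the stress list and 8 in the BM list, the most of any member. Of these, 19 stress and 4 BM peaks lay between -107046 and -11377 bp of the start site and were made mostly of 50-base stretches that occur more than once in the genome (over 50% of each peak). Such peaks made up 2.08% of stress peaks and 1.26% of BM peaks on chromosome 6. Without them Atg7 had 7 and 4 peaks, and 70 of 106 stress peaks of the members (66.0%) were shared, with 33 of 70 distal stress peaks found in that list only.

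**Figure D5:**
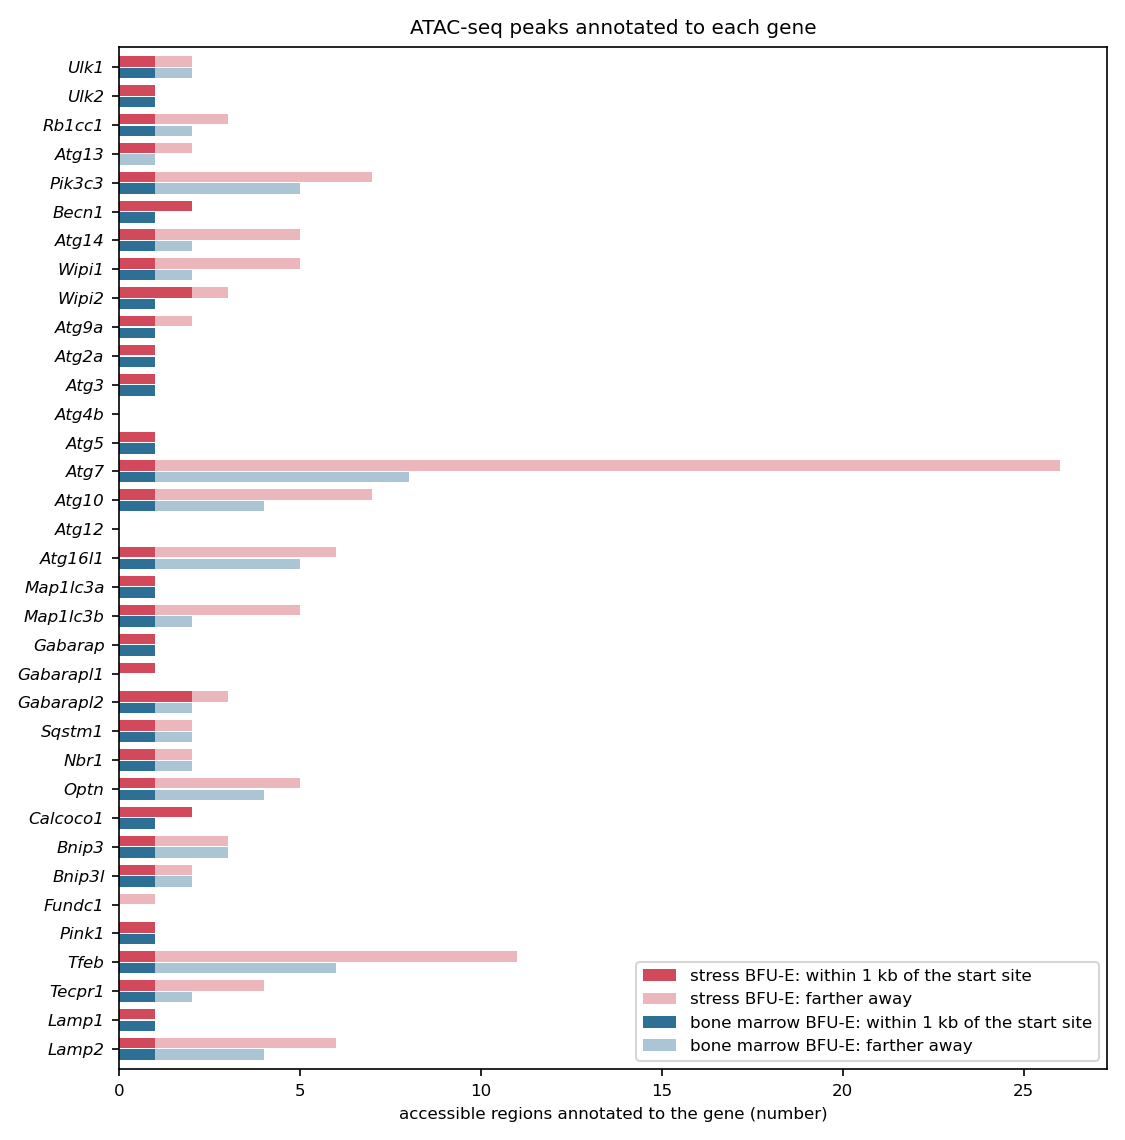
Number of peaks named for each member in the stress (upper bar) and BM (lower bar) BFU-E lists. Atg7 has 26 and 8 peaks, Tfeb 11 and 6, and 15 members have equal numbers.

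Optn had 5 peaks in the stress list and 4 in the BM list. The promoter peak, at chr2:5063353-5064452 in the stress list and chr2:5063612-5064453 in the BM list, scored 1000 in both. Intronic peaks 20836 and 18686 bp into the gene in the stress list scored 784 and 972, and their overlapping BM peaks scored 424 and 763. The first of them holds the printed window with AGATAA. Peaks at -14070 and -16312 bp from the start stood only in the stress list, with scores of 787 and 1000, and 1 intronic peak at chr2:5040823-5041071 stood only in the BM list, with a score of 544.

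Tfeb had 11 peaks in the stress list and 6 in the BM list. Of its 10 distal stress peaks, 5 stood in that list only, as did 0 of its 5 distal BM peaks. Over all genes, 46.7% of distal stress peaks and 93.8% of distal BM peaks were shared. Bnip3l had 2 peaks in each list, at the promoter and 9 kb into the gene, each scored 1000 in both. In the lists as a whole, the BM peaks had a lower median score (811) than the stress peaks (992), which bears on every comparison of scores.

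Motifs were searched on both strands in the 300-base RefSeq promoters of 27 members and in all 32851 promoters of that length. CACGTG occurred in 5 of 27 (18.5%), against 7.15% of all promoters: Lamp1, with the 4 matches printed above, Atg14, Atg3, Atg5 and Bnip3. ACGTG, the core of the hypoxia response element, which every CACGTG contains, occurred in 9 of 27 (33.3%), against 19.6%. CCNCNCCC, bound by erythroid Kruppel-like factors, occurred in 24 of 27 (88.9%), against 49.5%. Among promoter peaks the share was near that of all: in the central 250 bases it occurred in 21 of 36 (58.3%), against 60.1%, in the stress list. The BM list gave 18 of 30 (60%), against 60.3%. AGATAA and the FOXO motif TGTTTAC occurred in 0 of 27, against 11.2% and 3.65%. In the same central bases of promoter peaks, both occurred in 0 of 36 in the stress list, against 3.84% and 1.42%. In the BM list AGATAA occurred in 1 of 30 (3.33%), against 3.49%, and TGTTTAC in 0, against 1.34%. ACGTG occurred in 27.8% of these stress peaks, against 20.2%, and in 23.3% of the BM peaks, against 21%. For CACGTG the shares were 16.7%, against 6.37%, and 13.3%, against 6.71%. In the central 250 bases of the members' distal stress peaks, AGATAA occurred in 9 of 89 (10.1%), against 16.9% of all distal stress peaks, and TGTTTAC in 8 (8.99%), against 3.16%. Without the Atg7 peaks of repeated sequence, the shares of the members were 9 of 70 (12.9%) and 8 of 70 (11.4%). The peaks with AGATAA were named for Atg14, Atg16l1, Bnip3l, Lamp2, Map1lc3b, Optn and Wipi1, and those with TGTTTAC for Bnip3, Fundc1, Map1lc3b, Sqstm1, Tecpr1, Tfeb and Ulk1. Matches are a description of letters and were not tested.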

How the data were processed

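Members were found by gene symbol, and the members and lists were chosen with earlier results of these data known. Named are all members past the threshold, 12 members always described, and up to 4 genes of each other list past the threshold. The submitters' processing notes name the build mm10 (GRCm38) and the tools HOMER 4.8, Bowtie2 2.3.4.2, STAR 2.6.0b-1 and, without a version, DESeq2. Per the file headers, the authors counted exons with HOMER and kept 1 transcript per gene. The deposited count tables hold raw counts, 1 for the 9 spleen libraries and 1 for both BFU-E populations with genes of low counts removed by the authors. The deposited RPKM tables hold reads per length and library size. BM RPKM values come from the table of BFU-E libraries, where 1 BM column carries no number. In the 12-library table the BM values did not follow the counts, with an SD of the log2 ratio of 2.16 to 2.75, against 0.14 to 0.16 for stress BFU-E, and were not used. The deposited peak lists hold 1 list per population with the authors' score per peak (415 to 1000). Repeated entries were merged, which left 61661 of 117426 in the stress list and 35142 of 76147 in the BM list. The peak caller and its threshold are not given in the sources used here.

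The main test was edgeR's quasi-likelihood F test (edgeR 4.0.16 under R 4.3.3, TMM factors, BH adjustment over all genes), applied to the 3 spleen populations together on genes with a mean of 50 counts and to the BFU-E populations in their own table, so CPM of stress BFU-E differ slightly between the 2. CPM carry TMM factors. SE is the log2 fold change divided by the root of F, an approximation, as is the 95% interval from it. The procedure was tested on simulated counts with less spread between libraries than these data, most of all for the BFU-E table. In the data, edgeR's common estimate of the coefficient of variation was 0.70 in the BFU-E table and 0.25 in the spleen table. The simulation therefore does not show which differences could be found here. DESeq2 1.42.0 (parametric dispersion trend for the spleen table, local for the BFU-E table) and other settings were alternatives. Peaks within 1000 bp of a start were called promoter peaks, and lists were overlapped by 1 bp. Promoters of 28 members matched RefSeq by symbol, and 27 lay within 1 kb of the start used here. The labels do not say whether replicates are separate animals, so p-values measure the spread between these libraries, which may be technical.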

Additional observations from a re-analysis of the deposited data

How the results depend on the processing

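Of 780 recomputed log2 fold changes, of the members always described or called in each comparison, 734 kept their direction and their side of the threshold, 23 lost the call, 5 gained one and 18 changed sign, none of the 18 past the threshold in either fit. Over all members, 11 calls were gained: 5 of Gabarapl1 (CFU-E against MPP), 2 of Atg9a (CFU-E against BFU-E and MPP), 3 of Pink1 (BFU-E against MPP) and 1 of Atg16l1 (CFU-E against BFU-E). Of 164 recomputed counts, 141 stayed within 1.5 times. Where a cause is not named, the cause was not tested. For stress against BM BFU-E, 12 genes passed, against 685 with DESeq2 (38.5% of them higher, against 8.33%), 579 with DESeq2 and a mean dispersion trend (42.0% higher) and 0 to 27 with single libraries left out (27 without BM replicate 3, 0 without stress replicate 2 or 3), and 0 members passed in any of them. For BFU-E against MPP, 420 genes passed, against 668 with no filter, which tests more genes, 664 with DESeq2 and a mean trend, and 225 to 462 with single libraries left out. There 1 member passed, and 2 with total counts only, with no filter, and in the fit without MPP replicate 3 (1 to 2 over libraries left out). With single libraries left out, 3 to 6 members passed for CFU-E against BFU-E and 2 to 4 for CFU-E against MPP. With peaks at or above the median score only, shared member peaks numbered 41 in the stress list (74 with all) and 39 in the BM list (69 with all). DESeq2's parametric trend did not converge reliably on the BFU-E table, where its count of genes changed with numerical rounding, so the local trend was used there. The mean trend, leaving out repeated peaks and counting promoter peaks by position were chosen after seeing the data.

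The values that changed sign, each short of the threshold, were these. Sqstm1 in BFU-E against MPP was -0.002 with upper-quartile factors, and -0.080 to 0.063 with single libraries left out. Lamp2 in CFU-E against MPP was 0.018 with total counts only, and -0.119 to 0.016 with libraries left out. Over libraries left out, stress against BM BFU-E gave Ulk1 -0.81 to 0.15, Bnip3l -0.013 to 1.17 and Lamp2 -0.27 to 0.25. BFU-E against MPP gave Tfeb -0.84 to 0.025. CFU-E against BFU-E gave Becn1 -0.014 to 0.189, Map1lc3b -0.175 to 0.079 and Tfeb -1.19 to 0.003. CFU-E against MPP gave Ulk1 -0.14 to 0.22 and Bnip3l -0.16 to 0.24.

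No label says that a replicate number marks a shared mouse or day, though the spleen columns share the names Spleen1 to Spleen3, so no pairing was assumed. Deviations of same-numbered libraries correlated at -0.034 to -0.022 in the BFU-E table and 0.015 to 0.134 in the spleen table, against -0.014 to 0.039 and -0.093 to 0.030 for other pairs. In 16 of 18 comparisons of a spleen library with another population, its own number correlated best, a hint from the data and not the design. These comparisons use each correlation from both sides, so they are not independent. With the replicate block, 3 genes and 0 members passed for stress against BM BFU-E, and Gabarapl1 passed for CFU-E against MPP (-0.45, edgeR adjusted p = 0.039). The block changed no other call of a member.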
